A study of Mus musculus with 8 samples.

Results

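The 10 genes described here encode VEGF ligands, angiopoietins, neuropilins, apelin and the apelin receptor. They were picked by symbol (Vegfa, Vegfb, Vegfc, Pgf, Angpt1, Angpt2, Nrp1, Nrp2, Apln and Aplnr) from the 54532 genes of a bulk RNAseq read count table, and all 10 were found. The libraries came from GFP+ (mG+) cells that were sorted by FACS from female mice 8 months of age. WT mice were Tie2e-cre; TERT+/+; mTmG and EC-Tert-KO mice were Tie2e-cre; TERTfl/fl; mTmG, so both genotypes carried the Cre and the mTmG reporter, which switches a cell from membrane Tomato to membrane GFP once Cre has acted. Cells were taken from inguinal subcutaneous adipose tissue (SAT) of mice on chow or on a high-fat diet (HFD), from gonadal visceral adipose tissue (VAT) on chow, and from gastrocnemius muscle on chow. There was 1 WT and 1 KO library for each of these 4 tissue and diet settings, which makes 8 libraries in 4 pairs. Whether a library held the cells of 1 or of several mice is not given in the sources used here.

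VEGF-A drives endothelial growth and permeability through the receptor kinases encoded by Kdr and Flt1, VEGF-B and placental growth factor (Pgf) bind the Flt1 receptor, and VEGF-C acts mainly on the lymphatic receptor encoded by Flt4. Neuropilins are co-receptors that bind VEGF and class 3 semaphorins. Angiopoietin-1, made by perivascular cells, activates the Tie2 receptor (Tek) and steadies vessels, while angiopoietin-2, made by the endothelium itself, can oppose it. Apelin is a peptide released by sprouting endothelial cells, and its G protein-coupled receptor is carried by the endothelium. In adipose tissue VEGF-A is also made by adipocytes, stromal cells and macrophages, and it sets capillary density.

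The promoters of Vegfa and Vegfb are shown because these ligand genes differed in opposite directions between the KO and the WT library of SAT on chow. RefSeq (GRCm38.p6) gave promoters for 7 of the 10 genes, namely Vegfa, Vegfb, Vegfc, Pgf, Nrp1, Nrp2 and Apln. The 250 bases before the start site are printed 5′ to 3′ on the gene's own strand, and capitals mark GGGCGG, the core of a GC box, on either strand. The Vegfa promoter lies at chr17:46032378-46032627, its second annotated start is preceded by chr17:46025164-46025413 inside the gene, and the Vegfb promoter lies at chr19:6987652-6987901, all on the minus strand.
Vegfa: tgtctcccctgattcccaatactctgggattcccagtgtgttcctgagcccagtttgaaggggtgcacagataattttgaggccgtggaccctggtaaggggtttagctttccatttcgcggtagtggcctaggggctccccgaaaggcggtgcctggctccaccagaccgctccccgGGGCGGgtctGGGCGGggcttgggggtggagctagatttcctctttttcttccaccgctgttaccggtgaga
Vegfa, second start: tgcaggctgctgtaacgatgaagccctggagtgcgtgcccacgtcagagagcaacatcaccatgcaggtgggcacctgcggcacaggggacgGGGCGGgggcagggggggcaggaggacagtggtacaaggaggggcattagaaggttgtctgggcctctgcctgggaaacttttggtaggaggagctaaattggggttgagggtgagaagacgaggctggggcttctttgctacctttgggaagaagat
Vegfb: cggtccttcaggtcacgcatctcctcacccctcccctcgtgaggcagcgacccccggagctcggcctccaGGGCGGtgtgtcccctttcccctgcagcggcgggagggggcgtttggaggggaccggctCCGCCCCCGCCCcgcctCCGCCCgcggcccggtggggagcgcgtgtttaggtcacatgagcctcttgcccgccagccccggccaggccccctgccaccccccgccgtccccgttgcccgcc
GGGCGG occurred 2 times in the Vegfa promoter and 4 times in that of Vegfb, where 2 of the 4 lie side by side. Of all 32851 RefSeq promoters of this length, 32.7% held it at least once. The letters ACGTG, the core of a hypoxia response element, were found in the promoters of these 7 genes, on either strand, only before the second Vegfa start, at 211 bases before it, and 16.6% of all promoters held them. The related GCGTG was found, among other genes, 2 times before Vegfb and 1 time before the second Vegfa start, against 28.2% of all promoters. Sequence further than 250 bases before a start was not searched, so elements there would be missed.

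Several libraries stood apart. Total counts ran from 6214269 to 18855772 per library, and both SAT HFD libraries had fewer genes detected (16076 and 16034) than the chow libraries (19802 to 24688). The nuclear RNA Malat1 stood at 292 CPM (counts per 1000000 reads counted, scaled by TMM) in the WT library of SAT on chow and at 2150 to 5834 CPM in the other 7. The targeted gene, Tert, was read 114 times in the SAT HFD library from WT and 0 times in its KO partner, 70 and 11 times in SAT chow, and 24 and 7 times in muscle. VAT went against its labels, at 3 counts for WT and 9 for the one labelled KO. All 19 endothelial markers were detected in every library, but their summed level ran from 501 and 506 CPM in SAT HFD and 841 and 1111 CPM in SAT chow to the 2947 to 4460 CPM seen in VAT and muscle libraries. Markers of other cells were also present, with stromal markers (14 genes) at 1435 to 4658 CPM, macrophage markers (10 genes) at 9273 and 9399 CPM in VAT and neutrophil markers (10 genes) at 27170 and 31423 CPM in muscle. In such bulk samples, fewer cells of a type and less RNA per cell cannot be told apart.

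The 10 genes differed widely in level. Per kilobase of gene length, which allows genes to be compared, Vegfa ranked highest of the 10 in 5 of 8 libraries, with a range of 1.71 to 23.0 CPM per kb. Nrp1 ranked highest in both VAT libraries, at 38.1 and 34.4 CPM per kb, and Vegfb ranked highest in the WT library of SAT on chow, at 8.90 CPM per kb. Angpt1, Apln and Pgf were the scarcest, at no more than 2.34, 1.29 and 1.17 CPM per kb in any library. Summed over the 10 genes, the level was 116 to 228 CPM in the 4 SAT libraries, 394 and 446 CPM in muscle and 847 and 668 CPM in VAT. All 10 genes were above 3 counts in each of the 6 chow libraries, and 7 of 10 were in each SAT HFD library.

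**Figure D1:**
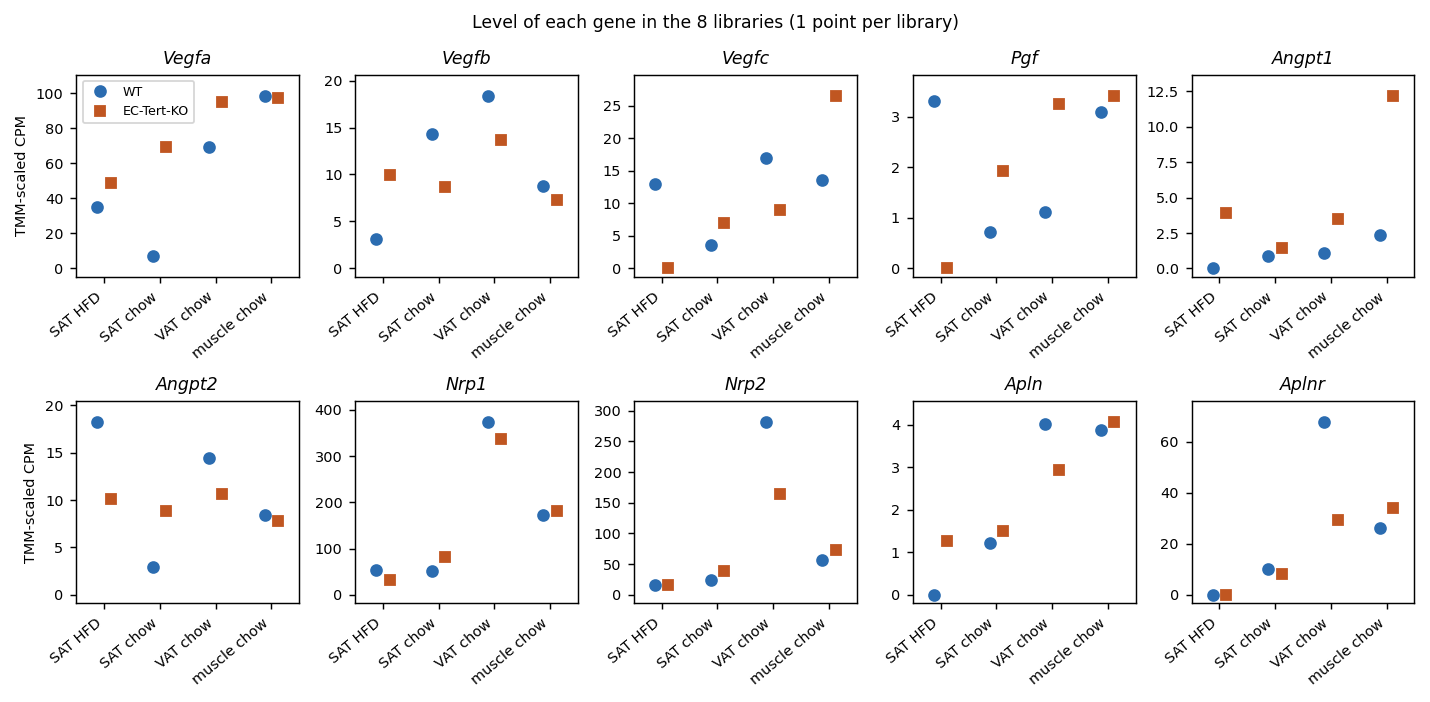
Level of each of the 10 genes, in TMM-scaled CPM on a linear axis that differs between panels, in the 8 libraries (1 point per library, WT circles and KO squares, with no error since each is a single library). Nrp1 and Nrp2 sat highest in VAT, Aplnr was at 0 in both SAT HFD libraries, and the WT library of SAT on chow was the lowest for Vegfa, at 7.32 CPM.

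Vegfa (ENSMUSG00000023951, GRCm38 chr17:46016993-46032369, minus strand) was the most abundant VEGF ligand per kilobase in 7 of 8 libraries. It stood at 34.9 CPM in WT and 48.5 in KO for SAT HFD, at 7.32 and 69.2 for SAT chow, at 69.3 and 95.2 for VAT and at 98.4 and 97.0 for muscle. The WT library of SAT on chow was the low one, while the other 7 libraries lay within 34.9 to 98.4 CPM. KO over WT in SAT chow was 3.23 on the log2 scale, or 9.41-fold, with a 95% counting interval of 2.97 to 3.52 that covers counting error of these libraries only. In that pair 7.39% of all genes tested rose at least as much. The corresponding log2 values were 0.47 (0.25 to 0.70) in SAT HFD, 0.46 (0.32 to 0.60) in VAT and -0.02 (-0.13 to 0.09) in muscle, so the muscle libraries could not be separated within counting error. Beside the difference in SAT chow, 12 of 14 stromal markers were more than 2-fold higher in KO, against 26.0% of all genes. Of the neutrophil markers that passed the filter, 9 of 9 were more than 2-fold lower in KO, against 19.3% of all genes. Summed stromal levels were 2274 CPM in WT and 4658 CPM in KO. The part of these cells in the result was not tested.

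Vegfb (ENSMUSG00000024962, chr19:6982473-6987651, minus strand), known for its part in fatty acid uptake by tissues, did not follow Vegfa. Its levels in WT and KO were 3.16 and 9.98 CPM in SAT HFD, 14.3 and 8.62 in SAT chow, 18.3 and 13.6 in VAT, and 8.79 and 7.24 in muscle. KO was the higher library on HFD, with a log2 value of 1.64 (0.99 to 2.40), and the lower one in all 3 chow pairs, with -0.73 (-1.04 to -0.42) in SAT, -0.43 (-0.74 to -0.12) in VAT and -0.28 (-0.66 to 0.10) in muscle. Gene length was 4285 bases for Vegfa and 1605 for Vegfb. Removing the trend of KO over WT with gene length took the genes past 2-fold in SAT chow from 7656 to 6283. In SAT HFD it took them from 5454 to 5431. The part of gene length in the opposite directions of Vegfa and Vegfb was not tested. Within the 4 VEGF ligands, Vegfa made up 28.3% of the counts in the WT library of SAT on chow (exact binomial 95% interval 24.1 to 32.8%). It made up 64.3 to 82.9% in the other 7 libraries. Per kilobase, the Vegfa share was 13.9% in that library and 46.3 to 65.5% in the others.

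Vegfc (ENSMUSG00000031520, chr8:54077606-54187096, plus strand), the lymphatic growth factor, was read 86 times in the WT library of SAT HFD and 0 times in the KO library. In CPM it stood at 12.9 and 0 there, at 3.57 and 7.05 in SAT chow, at 17.0 and 8.91 in VAT and at 13.6 and 26.5 in muscle. With the SAT HFD KO library taken at the limit of 3 counts, it was 54.4-fold lower there. The counting interval of that log2 value reached up to -5.44. Among 4546 genes read 43 to 172 times in that WT library, 3.98% were also at 0 in KO. The sign varied among the chow pairs, with log2 values of 0.98 (0.52 to 1.46) in SAT, -0.93 (-1.29 to -0.58) in VAT and 0.96 (0.71 to 1.20) in muscle. Of 7 lymphatic endothelial markers, the summed level was 47.2 and 33.7 CPM in SAT HFD WT and KO and 577 and 491 CPM in VAT. Lyve1, which some macrophages also express, made up most of the VAT sums, at 404 and 455 CPM. In the VAT library labelled KO 5 of 7 were more than 2-fold lower, against 6.81% of all genes. Their part in the result was not tested.

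Pgf (ENSMUSG00000004791, chr12:85166635-85177790, minus strand), a ligand of the Flt1 receptor, was scarce throughout, at 3.31 and 0 CPM in SAT HFD WT and KO, 0.726 and 1.93 in SAT chow, 1.12 and 3.24 in VAT, and 3.09 and 3.40 in muscle. With 22 counts in WT and 0 in KO, it was 13.9-fold lower in the SAT HFD KO library when KO was taken at 3 counts. The counting interval reached up to -3.38 on the log2 scale. Of the 4264 genes read 11 to 44 times in WT, however, 35.8% were at 0 in KO as well. Among the chow pairs, its log2 value was highest in VAT at 1.50 (0.52 to 2.69), followed by SAT at 1.37 (0.41 to 2.50) and muscle at 0.14 (-0.46 to 0.74). The intervals were wide at the 10 to 51 counts of the libraries in which it was read.

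Angpt1 (ENSMUSG00000022309, chr15:42424723-42676977, minus strand), the Tie2 agonist, was higher in KO than in WT in all 4 pairs. It stood at 0 and 3.88 CPM in SAT HFD, 0.908 and 1.45 in SAT chow, 1.12 and 3.46 in VAT, and 2.36 and 12.2 in muscle. The 4 WT libraries reached 2.36 CPM and the KO libraries began at 1.45 CPM, so the genotypes overlapped across tissues. In muscle, 39 counts in WT stood against 168 in KO, a log2 value of 2.35 (1.85 to 2.91), which 1.59% of all genes tested in that pair reached. The value was 1.59 (0.63 to 2.78) in VAT and 0.65 (-0.32 to 1.71) in SAT chow. In SAT HFD the 49 counts in KO against 0 in WT gave 8.60-fold with WT taken at 3 counts. The counting interval began at 2.75 on the log2 scale. Of 3835 genes with 25 to 98 counts in KO, 27.3% were at 0 in WT. Summed markers of mural cells (10 genes), the pericytes and smooth muscle cells around vessels, stood at 190 and 358 CPM in muscle WT and KO, 192 and 709 CPM in VAT, 65.4 and 190 CPM in SAT chow, and 124 and 117 CPM in SAT HFD, and summed stromal markers at 1435 and 2458 CPM in muscle. Their part in the result was not tested.

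Angpt2 (ENSMUSG00000031465, chr8:18690263-18741562, minus strand) was steadier, at 18.2 and 10.1 CPM in SAT HFD WT and KO, 2.97 and 8.80 in SAT chow, 14.4 and 10.6 in VAT, and 8.43 and 7.75 in muscle. As for Vegfa, the lowest library was WT of SAT on chow. KO over WT was 1.56 (1.09 to 2.07) on the log2 scale there, and -0.85 (-1.23 to -0.48) in SAT HFD, -0.44 (-0.80 to -0.09) in VAT and -0.12 (-0.50 to 0.25) in muscle. Of the counts of both angiopoietins, Angpt2 made up 72.2 to 100% in 7 libraries. The muscle KO library was the exception, at 38.9% (33.1 to 44.9%), and per kilobase the share there was 47.3% against 83.4% in muscle WT.

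**Figure D2:**
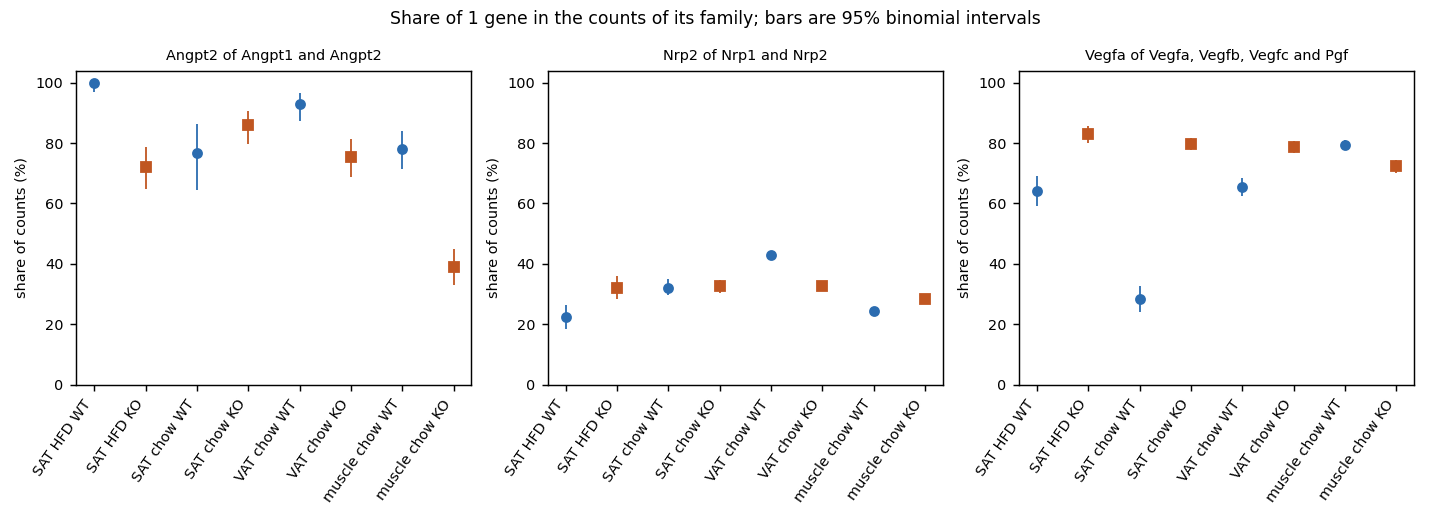
Share of Angpt2 in the counts of both angiopoietins, of Nrp2 in the counts of both neuropilins and of Vegfa in the counts of the 4 VEGF ligands, in percent, for each of the 8 libraries (WT circles, KO squares, bars are exact 95% binomial intervals for counting error). Angpt2 was lowest in muscle KO at 38.9%, Nrp2 highest in VAT WT at 43.0%, and Vegfa lowest in SAT chow WT at 28.3%.

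Nrp1 (ENSMUSG00000025810, chr8:128358604-128503363, plus strand) was ordered by tissue rather than by genotype. It stood at 54.1 and 31.8 CPM in SAT HFD WT and KO, 50.8 and 81.8 in SAT chow, 373 and 337 in VAT, and 173 and 182 in muscle. Both VAT libraries exceeded both muscle libraries, which exceeded all 4 SAT libraries, while SAT on HFD and on chow overlapped. The share of all genes with such an order was not counted. On the log2 scale, KO over WT was -0.77 (-0.98 to -0.56) in SAT HFD and 0.68 (0.56 to 0.81) in SAT chow. It was close to 0 elsewhere, with -0.15 (-0.21 to -0.08) for VAT and 0.07 (-0.01 to 0.15) for muscle.

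Nrp2 (ENSMUSG00000025969, chr1:62703285-62818695, plus strand), the neuropilin best known from veins and lymphatics, followed the same order of tissues. Its levels were 15.5 and 15.0 CPM in SAT HFD WT and KO, 24.1 and 39.4 in SAT chow, 281 and 164 in VAT, and 56.0 and 72.1 in muscle. No tissue or diet setting overlapped another, with SAT HFD lowest and VAT highest. How many of all genes were separated in this way was not counted, so it cannot be read as particular to Nrp2. KO over WT was 0.71 (0.53 to 0.89) in SAT chow and 0.37 (0.24 to 0.50) in muscle but -0.78 (-0.86 to -0.69) in VAT, and -0.04 (-0.40 to 0.32) in SAT HFD. Nrp2 made up 43.0% (41.7 to 44.3%) of neuropilin counts in VAT WT and 22.2 to 32.7% in the other 7 libraries.

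Apln (ENSMUSG00000037010, chrX:48025146-48034853, minus strand), the ligand, was near the lower end of detection. It had 0 and 16 counts in SAT HFD WT and KO, 20 and 25 in SAT chow, 36 and 40 in VAT, and 64 and 56 in muscle. In CPM the SAT libraries lay at 0 to 1.51, VAT at 4.03 and 2.95 and muscle at 3.88 and 4.06, so VAT and muscle did not differ beyond their spread. KO over WT spanned 0 within counting error in all 3 chow pairs, with log2 values of 0.31 (-0.59 to 1.24) in SAT, -0.45 (-1.14 to 0.24) in VAT and 0.06 (-0.48 to 0.60) in muscle.

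Aplnr (ENSMUSG00000044338, chr2:85136225-85139923, plus strand), the apelin receptor, had 0 counts in both SAT HFD libraries. On chow it was read in every library, at 10.2 and 7.95 CPM in SAT WT and KO, 67.6 and 29.4 in VAT, and 26.2 and 34.0 in muscle. With each SAT HFD library taken at 3 counts, the SAT HFD level was 26.4-fold lower than in SAT chow. Of 3754 other genes with 75.25 to 301 mean counts in SAT chow, 38 (1.01%) were also at 0 in both SAT HFD libraries. Endothelial markers were lower there too, with a summed level of 501 and 506 CPM in SAT HFD against 841 and 1111 CPM in SAT chow. In the fit of HFD over chow, 0 of 19 lay above 0 and their median was -1.30, where that of all genes was -0.24, with none called. Pecam1 led the sum at 151 and 210 CPM in SAT HFD, while Cdh5 stood at 14.1 and 21.8 CPM there against 54.1 and 78.3 in SAT chow, and Emcn at 3.01 and 2.69 against 17.9 and 14.8. The part of the endothelial share in the Aplnr result was not tested. KO over WT was -1.20 (-1.39 to -1.02) in VAT, where 5.25% of genes fell as much, -0.36 (-0.70 to -0.03) in SAT chow and 0.37 (0.18 to 0.57) in muscle.

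The comparison of genotypes asked whether loss of Tert in Tie2-lineage cells went with a change in these genes. Since each pair held 1 library per genotype, no test was possible within a pair, and changes past 2-fold were counted by size. In SAT HFD, 8 of the 10 genes had a mean of at least 10 counts, and 2 (Vegfb, Angpt1) were past 2-fold higher in KO and 2 (Vegfc, Pgf) lower, where 17.9% and 16.6% of all genes were. In this pair Vegfc, Pgf and Angpt1 passed the filter through 1 of their libraries alone. In SAT chow 3 of 10 (Vegfa, Pgf, Angpt2) were higher and 0 lower, against 26.0% and 19.3% of all genes. In VAT 2 (Pgf, Angpt1) were higher and 1 (Aplnr) lower in the library labelled KO, against 8.21% and 6.81%. In muscle 1 (Angpt1) was higher and 0 lower, against 8.73% and 6.18%. The median log2 value of the genes that passed the filter was -0.41 in SAT HFD, 0.70 in SAT chow, -0.44 in VAT and 0.10 in muscle, where the median of all genes was between -0.01 and 0.04.

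**Figure D3:**
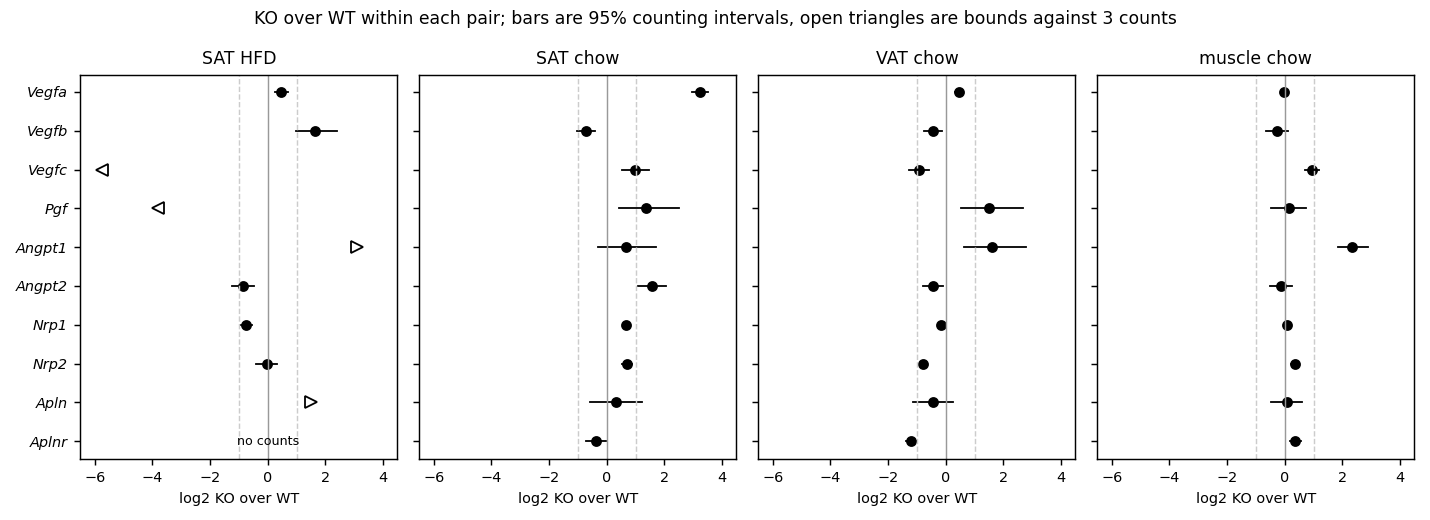
KO over WT on the log2 scale for the 10 genes in each of the 4 pairs (1 library per genotype). Bars are 95% counting intervals, open triangles are bounds against 3 counts where 1 library was at 0, and dashed lines mark 2-fold. Vegfa in SAT chow reached 3.23. The Angpt1 value was above 0 in all 4 pairs, but its interval spanned 0 in SAT chow and it is a bound in SAT HFD.

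Tested across the 4 pairs with edgeR's quasi-likelihood test, which took the tissue and diet as a block, 0 of the 10 genes passed an adjusted p of 0.05, where 1 of 16971 genes (0.00589%) did. None of the 10 had an unadjusted p under 0.05 (0 of 10, against 1.64% of all genes). DESeq2 also called 0 of the 10, and 0.112% of all genes. The lowest p-values were those of Angpt1, with a log2 difference of 2.31 (SE 1.14, adjusted p = 0.9999 by edgeR, higher in KO in 4 of 4 pairs), and Vegfa, with 0.95 (SE 0.52, adjusted p = 0.9999 by edgeR, higher in 3 of 4 pairs). The Angpt1 value includes the SAT HFD pair with 0 counts in WT and was 1.57 without it. That of Vegfa was 0.31 without the SAT chow pair. The spread between pairs was wide for the genes with a 0, with an SE of 1.27 for Vegfc and 1.58 for Pgf.

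The comparison of tissues and diets used the same fit, in which the WT and the KO library of a setting served as its 2 libraries after a genotype term. The contrasts share libraries and are not independent of each other. VAT against SAT on chow gave 2 calls among the 10 genes, both higher in VAT, where 5.06% of all genes were called, 3.31% higher and 1.75% lower. At an unadjusted p under 0.05 it was 3 of 10, against 20.3% of all genes. Nrp2 rose by 2.82 (SE 0.42, adjusted p = 0.0131 by edgeR), or 7.09-fold, and Nrp1 by 2.41 (SE 0.40, adjusted p = 0.0167 by edgeR), or 5.33-fold. Aplnr missed the threshold, with 2.36 (SE 0.51, adjusted p = 0.0505 by edgeR), but was called under 5 alternatives and without the SAT HFD pair. Among these were RLE size factors (adjusted p = 0.0475 by edgeR) and DESeq2 (adjusted p = 0.000664), which called 13.6% of all genes in this contrast. Aplnr was not called with library totals (adjusted p = 0.0614 by edgeR) or the upper quartile (adjusted p = 0.0617 by edgeR). With libraries scaled to the summed endothelial markers, as below, it was at 0.50 (adjusted p = 0.647 by edgeR). Without the VAT WT library its value was 1.69. Without the VAT WT library neither neuropilin was called, with 2.35 for Nrp1 (adjusted p = 0.103 by edgeR) and 2.23 for Nrp2 (adjusted p = 0.0902 by edgeR), and without the VAT library labelled KO, Nrp1 was not (2.56, adjusted p = 0.0922 by edgeR).

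The summed endothelial markers were also higher in VAT than in SAT on chow, so both neuropilins were set against them. Nrp1 counts were 6.05 and 7.36% of the endothelial marker counts in SAT chow WT and KO, 9.66 and 11.4% in VAT, 5.01 and 4.07% in muscle, and 10.8 and 6.28% in SAT HFD. For Nrp2 the values were 2.87 and 3.55% in SAT chow, 7.28 and 5.56% in VAT, 1.62 and 1.62% in muscle, and 3.09 and 2.97% in SAT HFD. Both remained highest in VAT among the chow settings on this scale. When libraries were scaled to these markers, a choice made after the data were seen, VAT against SAT chow was 0.65 for Nrp1 (adjusted p = 0.268 by edgeR) and 0.997 for Nrp2 (adjusted p = 0.109 by edgeR), and neither was called. On the first scale, 12 of 19 endothelial and 10 of 10 macrophage markers were called higher in VAT, and the summed macrophage level was 867 and 447 CPM in SAT chow and 9399 and 9273 CPM in VAT. Lymphocyte markers went the other way, with 8 of 8 B cell markers (median -3.50) and 8 of 10 T cell markers (median -3.11) called lower. Of 7 lymphatic endothelial markers 1 was called higher, and without Lyve1 the other 6 summed to 23.2 and 38.9 CPM in SAT chow and 173 and 35.9 CPM in VAT. The part of these cells in the result was not tested.

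**Figure D4:**
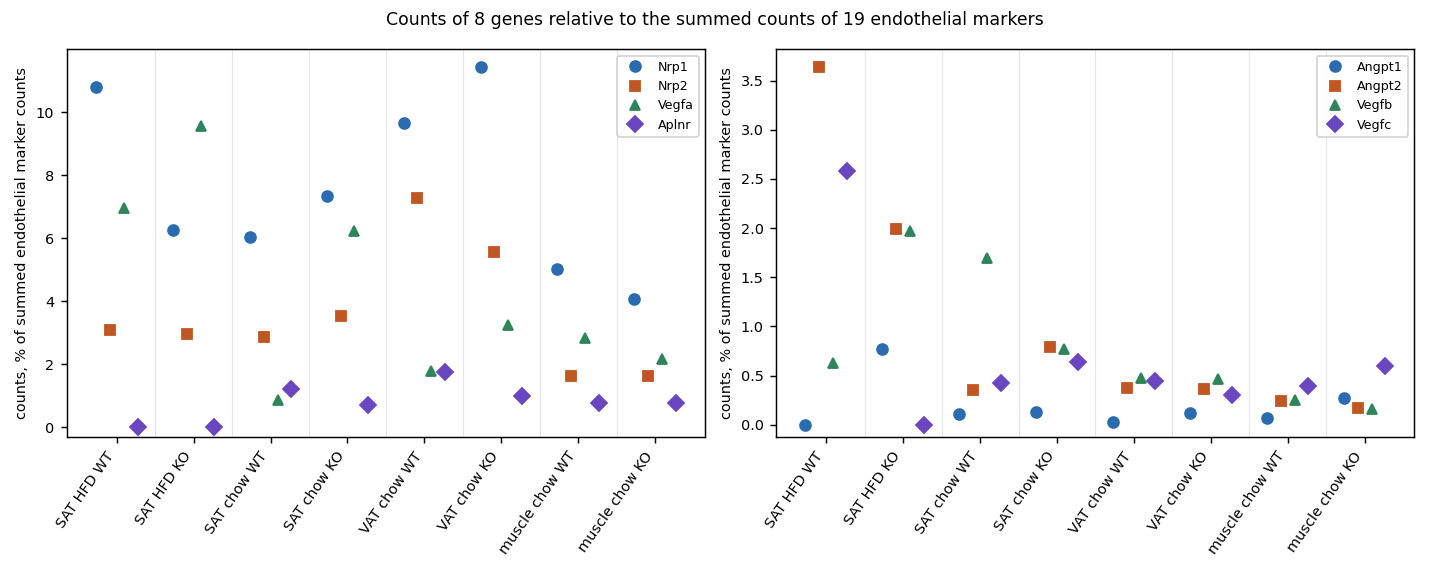
Counts of 8 of the 10 genes as a percentage of the summed counts of 19 endothelial markers in each of the 8 libraries (1 point per library). Nrp1 and Nrp2 reached 11.4% and 7.28% in VAT, Aplnr lay at 0.716 to 1.75% in the chow libraries and at 0 in SAT HFD, and Vegfa ran from 0.871% in SAT chow WT to 9.58% in SAT HFD KO.

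Muscle against SAT on chow called 0 of the 10 genes, where 1.25% of all genes were called (1.10% higher and 0.147% lower). An unadjusted p under 0.05 was seen for 4 of 10 (Vegfa, Nrp1, Nrp2 and Aplnr, all with higher values in muscle), against 11.5% of all genes. Scaled to the endothelial markers, of which 8 of 19 were called higher in muscle, all 4 turned sign, to -0.080, -0.58, -0.99 and -0.28 in that order. On the first scale Vegfa was at 1.77 (SE 0.73, adjusted p = 0.404 by edgeR), Nrp1 at 1.42 (SE 0.38, adjusted p = 0.151 by edgeR) and Aplnr at 1.77 (SE 0.50, adjusted p = 0.196 by edgeR). The Vegfa value was 3.60 without the SAT chow KO library, where it was called (adjusted p = 0.00712 by edgeR), and 0.72 without the SAT chow WT library, the one in which Vegfa stood at 7.32 CPM. Muscle against VAT also called 0, where 1.93% of all genes were called (0.884% higher and 1.05% lower), and 2 of 10 had an unadjusted p under 0.05, against 12.8% of all genes. These were Nrp2, at -1.81 (SE 0.40, adjusted p = 0.0678 by edgeR), and Nrp1, at -0.999 (SE 0.38, adjusted p = 0.298 by edgeR).

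HFD against chow in SAT called 0 of the 10 genes by edgeR and 0 of all 16971, while 2 of the 10 had an unadjusted p under 0.05 and 7.98% of all genes did. These 2 were Aplnr (adjusted p = 0.111 by edgeR), which has the bound given above in place of a fold, and Nrp2, at -1.05 (SE 0.40, adjusted p = 0.596 by edgeR). DESeq2 called 1 of the 10, Aplnr, with an adjusted p of 4.14e-05, and 1.53% of all genes. Angpt2 was at 1.26 (SE 0.73, adjusted p = 0.729 by edgeR), with SAT HFD at 18.2 and 10.1 CPM and SAT chow at 2.97 and 8.80 CPM, which do not overlap. The share of all genes without overlap between these settings was not counted. Vegfc, Pgf, Angpt1 and Apln each had 1 SAT HFD library at 0, and their SE was 1.56 to 2.25. Both diets were measured in SAT alone, and each SAT diet setting also differed in detected genes, so diet and that difference cannot be told apart.

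**Figure D5:**
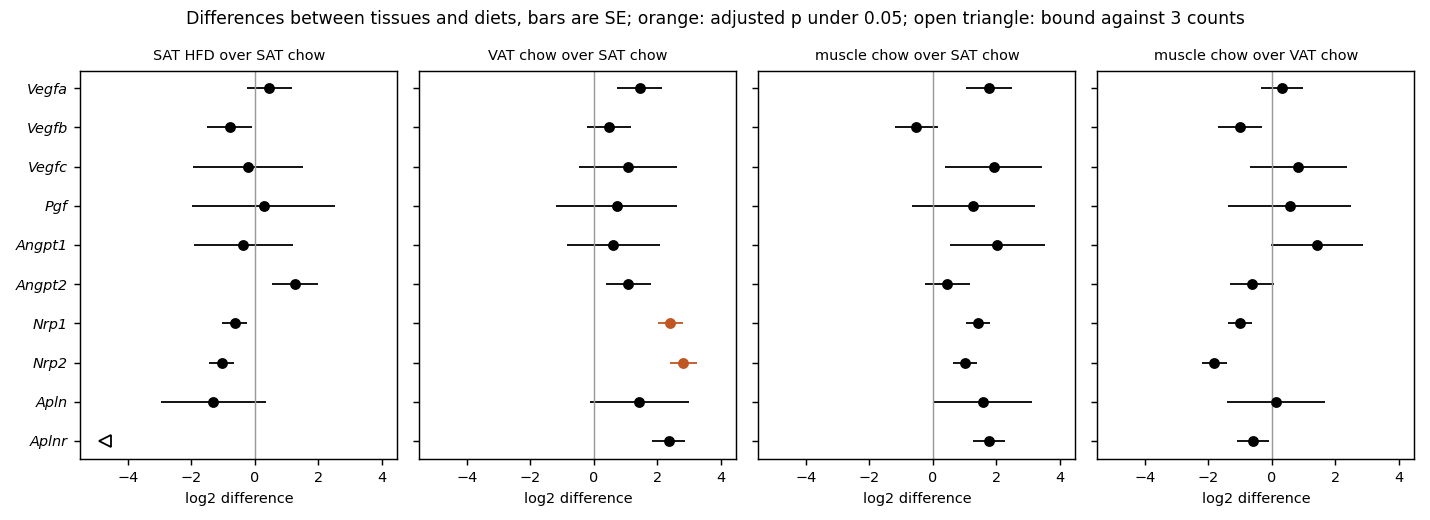
Log2 difference of the 10 genes between tissues and diets from the edgeR fit over 8 libraries, with bars of 1 SE. Orange points passed an adjusted p of 0.05 (Nrp1 and Nrp2 in VAT over SAT chow), and the open triangle for Aplnr in SAT HFD is a bound against 3 counts.

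The receptor kinases for these ligands were read next to them. All 5 (Flt1, Kdr, Flt4, Tek and Tie1) were detected in every library, with a summed level of 73.7 and 61.2 CPM in SAT HFD WT and KO, 98.5 and 244 in SAT chow, 871 and 693 in VAT, and 871 and 961 in muscle. None of the 5 was called for genotype across the pairs (0 of 5 by edgeR, like the 10 genes). Over SAT on chow 1 of the 5 was called higher in VAT and in muscle, against 3.31% and 1.10% of all genes. This was Tie1, the orphan partner of Tie2, at 2.24 in VAT (SE 0.38, adjusted p = 0.0191 by edgeR) and 2.53 in muscle (SE 0.39, adjusted p = 0.0288 by edgeR). The others rose by like amounts without a call. In VAT, Kdr, Tek, Flt1 and Flt4 were at 2.28, 2.25, 2.23 and 1.73, and in muscle at 2.34, 2.30, 2.60 and 2.18. The median of the endothelial markers was 2.02 in VAT and 2.30 in muscle. Flt1, Kdr, Tek and Tie1 are themselves among these markers, so the medians are no independent comparison. Within SAT chow, where Vegfa was 9.41-fold higher in KO, 2 of the 5 kinases were past 2-fold higher, against 26.0% of all genes. Kdr had a log2 value of 1.69 (1.54 to 1.85) and Flt1 one of 1.66 (1.51 to 1.83). Tie1 was at 0.64 (0.46 to 0.83) and Flt4 at 0.49 (0.12 to 0.87). The WT library of this pair is the one with Malat1 at 292 CPM. In SAT HFD, Kdr and Flt1 were at -0.46 and -1.32, and Tie1 and Flt4 at -0.66 and -1.42. Tek, whose promoter drives the Cre, had 40 counts in SAT HFD WT and 285 in KO, a log2 value of 1.90 (1.43 to 2.42), and its values in the chow pairs were 0.90 in SAT, -0.59 in VAT and 0.34 in muscle.

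Lists of genes around these ligands were counted in the same contrasts, chiefly VAT against SAT chow, where 3.31% of all genes were called higher and 1.75% lower and where macrophage and endothelial markers were also called higher (10 of 10 and 12 of 19). Of 13 semaphorin ligands and plexin partners of neuropilins, 12 were tested in VAT against SAT chow, and 3 rose with 0 falling (Plxnd1 by 2.39, Plxna1 by 2.38 and Plxna4 by 4.01), with a list median of 1.29 where the median of all genes was -0.08. Plxna1 then fell by 2.49 from VAT to muscle (adjusted p = 0.0214 by edgeR). Of 14 genes of tip cells and of the VEGF response, 2 rose in VAT over SAT chow, namely Rcan1, a calcineurin inhibitor induced by VEGF, by 2.50 and the Notch ligand Dll4 by 2.06, and the list median was 1.63. Of 12 other ligands and regulators, 10 were tested, and Emcn, Cdh5 and the phosphatase gene Ptprb rose by 1.96, 2.02 and 2.88. Emcn, Cdh5, Ptprb and Tie1 are also endothelial markers. Of 16 oxygen-responsive genes, among which Vegfa was not counted, 1 fell and 0 rose, namely Pdk1, which restrains pyruvate oxidation, by 2.60 (adjusted p = 0.00967 by edgeR). Apela, the second ligand of the apelin receptor, had 0 counts in all 8 libraries.

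Across the pairs none of these lists held a gene called for genotype. Within SAT chow, 8 of 14 tip cell and VEGF response genes were past 2-fold higher in KO and 0 lower, with a list median of 1.41, against 26.0% of all genes higher and a median of -0.01. In the same pair 12 of 14 stromal markers (median 1.78) and 5 of 9 mural markers (median 1.67) were past 2-fold higher. Past 2-fold lower were 9 of 9 neutrophil and 6 of 10 T cell markers, against 19.3% of all genes. Malat1 stood at 292 CPM in WT and 5834 CPM in KO. The part of these differences in the result was not tested. The 16 oxygen-responsive genes of that pair had 1 past 2-fold higher and 4 lower, against 26.0% and 19.3% of all genes. Their median was -0.48. Removing the trend with gene length took all genes past 2-fold in that pair from 7656 to 6283. The part of gene length in the difference between the 2 lists was not tested. In SAT HFD 12 of the 14 tip cell genes passed the filter, with 2 past 2-fold higher and 2 lower, where 17.9% and 16.6% of all genes were. In VAT 0 of 14 were past 2-fold in either direction (8.21% and 6.81% of all genes), and in muscle 2 were higher and 0 lower (8.73% and 6.18%).

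For each of the 10 genes, the genes with the most similar profile were found as the highest Pearson correlation of log2 CPM over the 8 libraries, given as a description since libraries fall into tissues and share depth effects. For Nrp1 the nearest were Erlin1, Slc8b1 and Hdac5 (r = 0.992, 0.992 and 0.990), and for Nrp2 they were Aplp2, Mras and Asph (0.990, 0.989 and 0.986). Apln was nearest to Ston1, Adgrl4 and Mid2 (0.993, 0.993 and 0.992), of which Adgrl4 is an endothelial adhesion receptor. Aplnr was nearest to Lama3, Fcgr4 and Tlcd2 (0.997, 0.996 and 0.994). Vegfa was nearest to AC130815.2, Gm15601 and Ppp1r12a (0.982, 0.978 and 0.976), and Vegfb to Tcrg-C1, Tbc1d16 and Tor1aip1 (0.964, 0.960 and 0.954). Vegfc was nearest to Myo1d, Epb41l4a and Fam13c (0.992, 0.987 and 0.986), and Pgf to Kazn, Cilp and St7 (0.991, 0.984 and 0.980). Angpt1 had its highest values with Klhl23, Coq4 and Syde1 (0.961, 0.958 and 0.952), and Angpt2 with Gm37558, A630081D01Rik and Gm44103 (0.996, 0.982 and 0.981). None of these was itself among the 10 genes. Libraries at 0 counts entered these profiles at the prior count. They were both SAT HFD libraries for Aplnr, the KO one for Vegfc and Pgf, and the WT one for Angpt1 and Apln. The part of these libraries in the profiles was not tested.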

How the data were processed

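GFP+ cells sorted from SAT (HFD and chow), VAT and gastrocnemius muscle gave 8 mRNA libraries, 1 per genotype and setting. The authors deposited raw read counts per gene, with gene lengths, coordinates and names. The submitters' processing notes name HISAT2 2.0.5 and GRCm38/mm10. The counting program, its annotation and its use of strand are not given in the sources used here, so reads of a gene and of an overlapping antisense gene cannot be told apart. RNA extraction is given as RNeasy in the labels and as Trizol in the study's methods.

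Counts were scaled by TMM (edgeR 4.0.16, R 4.3.3) over genes whose 8 libraries averaged 10 counts or more, and given as CPM. KO over WT within a pair is a log2 ratio with a prior count of 0.5, an exact conditional binomial 95% interval (counting error only) and no test. Where 1 library had 0 counts, the fold is a bound against 3 counts, which are 0.181 to 0.451 CPM per library. This bound leaves out the counting error of the other library. Genotype across pairs (tissue and diet as block) and tissue or diet contrasts (genotype as covariate) were tested by quasi-likelihood F-tests in edgeR, adjusted by Benjamini-Hochberg over 16971 genes. With 1 library per genotype and setting, p-values measure the spread left between libraries, which may be technical. DESeq2 1.42.0, other scalings, filters and left-out libraries were alternatives. Scripts were tested on simulated counts. Up to 4 genes of a list were named by lowest p, and 3 similar profiles per gene among genes averaging 50 counts or more. The 10 genes and all lists were chosen with earlier results of these data known. Other libraries and protein levels were not analysed here.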

Additional observations from a re-analysis of the deposited data

Results flagged for a closer look

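For 7 genes the KO library was higher in 1 pair and lower in another, with counting intervals or bounds away from 0 on both sides. How many of all genes did the same was not counted, so the number cannot be read as particular to these genes. With 1 library per genotype in a pair, none of these differences was tested. Given as the difference between the 2 log2 values of KO over WT, Vegfb differed by 2.37 between SAT HFD (1.64) and SAT chow (-0.73). Angpt2 differed by 2.41 and Nrp1 by 1.45 between SAT chow, where KO was higher, and SAT HFD, where it was lower. Vegfc differed by at least 6.74 between the same pairs and Pgf by at least 5.30 between VAT and SAT HFD, both against a SAT HFD KO library with 0 counts taken at its bound. Nrp2 differed by 1.49 between SAT chow (0.71) and VAT (-0.78), and Aplnr by 1.57 between muscle (0.37) and VAT (-1.20). The VAT pair is the one in which Tert went against the label, and SAT chow is the pair whose WT library had the low Malat1 level of 292 CPM. Their part in the result was not tested.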

How the results depend on the processing

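For genotype across the pairs, 0 of the 10 genes were called under every alternative run for that test and every left-out pair. Scaling to the summed endothelial markers was not among these alternatives. Of all genes, 0 to 0.138% were called under the alternatives, so few calls of any gene were made. The tissue and diet setting was the block of that fit, and without the block 0 were called as well, with the sign turned for Vegfb at -0.18, Pgf at 0.060, Angpt2 at -0.24 and Nrp2 at -0.37. Small values around 0 turned sign with the scaling, Pgf to 0.024 with RLE size factors, 0.12 with library totals, 0.038 with the upper quartile and 0.025 with DESeq2, and Nrp1 to 0.082 with library totals. With 1 pair left out, sign changes occurred for Vegfb (-0.48 to 0.27), Vegfc (-1.60 to 0.35), Pgf (-0.77 to 1.01), Angpt2 (-0.47 to 0.31), Nrp1 (-0.26 to 0.20), Nrp2 (-0.15 to 0.37), Apln (-0.029 to 1.28) and Aplnr (-0.80 to 0.031).

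Calls between settings varied more. With all genes of at least 1 count tested, edgeR called 1 of the 10 genes for SAT HFD over SAT chow, 4 for VAT over SAT chow, 3 for muscle over SAT chow and 1 for muscle over VAT, where 0.975%, 7.12%, 3.28% and 3.93% of all genes were called. DESeq2 called 1, 3, 2 and 1 in the same order, and 1.53%, 13.6%, 6.23% and 7.41% of all genes. Aplnr also gained the VAT over SAT chow call with RLE size factors (adjusted p = 0.0475 by edgeR), a mean of at least 50 counts (0.0407) and no genotype term (0.0305), and without the SAT HFD pair (0.0400). It did not gain the call with library totals (adjusted p = 0.0614 by edgeR) or the upper quartile (0.0617). Without the genotype term, muscle over VAT gave 1 call, and SAT HFD over SAT chow turned sign for Vegfc (0.25) and Angpt1 (0.75). With 1 pair or library left out, a lone library then being assumed to vary like the others, calls ran from 0 to 2 for SAT HFD over SAT chow, 0 to 3 for VAT over SAT chow, 0 to 2 for muscle over SAT chow and 0 to 1 for muscle over VAT. Without the SAT chow KO library, Vegfa was called higher in SAT HFD (2.35), VAT (3.33) and muscle (3.60) than in SAT chow WT. Signs changed for Vegfa (-0.52 to 2.35), Vegfb (-2.08 to 0.19), Vegfc (-9.32 to 1.48), Pgf (-7.55 to 1.94), Angpt1 (-6.20 to 1.04) and Apln (-7.20 to 0.022) in SAT HFD over SAT chow, where fitted values against libraries at 0 depend on the prior count and are no folds. They also changed for Pgf (-0.78 to 2.13) and Angpt1 (-0.26 to 2.02) in VAT over SAT chow, Vegfb (-0.94 to 0.11) and Angpt2 (-0.28 to 1.69) in muscle over SAT chow and Vegfa (-0.46 to 0.86), Vegfc (-0.69 to 1.86), Pgf (-0.32 to 1.99), Apln (-0.52 to 1.16) and Aplnr (-1.19 to 0.035) in muscle over VAT.

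Scaling to the summed endothelial markers, added after the data were seen, gave 1 call for SAT HFD over SAT chow (Aplnr), 0 for VAT over SAT chow, 1 for muscle over SAT chow (Vegfb) and 1 for muscle over VAT (Nrp2), where 0.0943%, 48.1%, 54.4% and 2.67% of all genes were called. Since it lowers chow VAT and muscle against SAT by construction, it turned the sign in VAT over SAT chow for Vegfa at -0.26, Vegfb at -1.38, Vegfc at -0.66, Pgf at -0.88, Angpt1 at -1.29, Angpt2 at -0.66 and Apln at -0.45, in muscle over SAT chow for Vegfa at -0.080, Vegfc at -0.10, Pgf at -0.68, Angpt1 at -0.068, Angpt2 at -1.48, Nrp1 at -0.58, Nrp2 at -0.99, Apln at -0.43 and Aplnr at -0.28, and in SAT HFD over SAT chow for Vegfb at 0.13, Vegfc at 0.77, Angpt1 at 0.46 and Nrp1 at 0.32. Within pairs the same scaling left 1 gene past 2-fold lower in SAT chow and 0 in VAT. Of all genes past 2-fold under it, 38.5% of 8656 were higher in SAT chow and 78.4% of 3084 in VAT. Removing the trend with gene length left 2 lower in VAT, where 49.7% of 2429 genes past 2-fold were higher. In SAT chow it took the genes past 2-fold from 7656 to 6283. Library totals or the upper quartile left 2 higher in muscle. There, 69.5% of 2700 and 63.1% of 2580 genes past 2-fold were higher. Library totals moved the share of higher among all genes past 2-fold from 57.3% to 69.4% in SAT chow and from 58.5% to 69.5% in muscle, and the median of all genes to 0.23 and 0.16. The cause was not tested. Depth limited Apln and Pgf, with 10 to 64 counts in each chow library, whose counting intervals spanned 0 in 4 of 6 chow comparisons.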
